A study of Mus musculus with 2 samples.

Results

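This account covers the protein-coding genes of chromatin remodelling in G1E cells, a mouse erythroid progenitor line: the SWI/SNF, ISWI and CHD families, the subunits of the NuRD complex and the zinc-dependent histone deacetylases. Members were chosen by name alone, as protein-coding symbols that begin with Smarc, Arid1 to Arid5, Chd1 to Chd9, Gatad2 or Hdac with a number, together with Mta1 to Mta3, Mbd1 to Mbd6, Rbbp4 and Rbbp7. Hdac1 and Hdac2 were left out. This gave 55 genes of the 21474 protein-coding genes in the tables. Some of them, such as Arid3a, Mbd4 and Smarcal1, matched by name but belong to none of the families or complexes named above. Levels are in TPM, the usual length-scaled unit of RNA-seq. It divides reads by transcript length, and then by the library's sum of these length-scaled values. Genes can thus be set against each other. A gene was called detected when each library gave it at least 1 TPM. By this rule 46 of the 55 members were detected, beside 8581 of 21474 protein-coding genes, or 40%. The highest member was Mta1, a scaffold of NuRD, at 499 TPM in replicate 1 and 494 TPM in replicate 2. Of the 46 detected members, 11 lay in the top 10% of detected protein-coding genes by mean TPM.

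Chromatin remodellers use ATP to slide, evict or exchange nucleosomes, and they fall into families by their ATPase: SWI/SNF, ISWI, CHD and INO80. The NuRD complex joins a CHD-type ATPase to histone deacetylases through MTA scaffolds, MBD proteins, GATAD2 bridging subunits and the histone chaperones RBBP4 and RBBP7. In red cell precursors the cofactor FOG-1, made from Zfpm1, binds GATA factors and brings NuRD to their target genes.

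The study measured poly(A) RNA by paired-end sequencing in 2 libraries of 1 group, with no treatment or comparison group. The cells were labelled as the immortalised line G1E, a Gata1- erythroid progenitor from a male mouse of postnatal stage, age 0 day. The labels call the libraries biological replicates and cite the same biosample for both, so that the spread between them may be technical. Since there was 1 group, no test between conditions was possible, and each value below is a level, a share or a ratio between libraries. Means are given with the SD over 2 libraries.

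The library of replicate 1 held 61982634 expected counts and that of replicate 2 held 80658648. Members took 1.06% of the counts in each library, and 0.445% and 0.428% of the TPM in replicates 1 and 2. All 10 erythroid progenitor markers examined were detected, among them Zfpm1 at 1195 ± 51.2, Gata2 at 1013 ± 102 and Gfi1b at 693 ± 75.5 TPM. None of the 12 markers of lymphoid, myeloid, stromal, endothelial, pluripotent, neural and muscle cells was detected. Their summed level was 0.93 TPM in replicate 1 and 1.45 TPM in replicate 2, most of it the neutrophil elastase gene Elane, and Cd3e, Pdgfra, Col1a2, Pecam1, Pou5f1, Nanog and Myod1 were at 0. Gata1 itself was listed at 48.0 and 46.6 TPM in replicates 1 and 2. The labels do not say how Gata1 was altered and there is no Gata1+ library to set these values against, so they do not check the genotype.

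**Figure D1:**
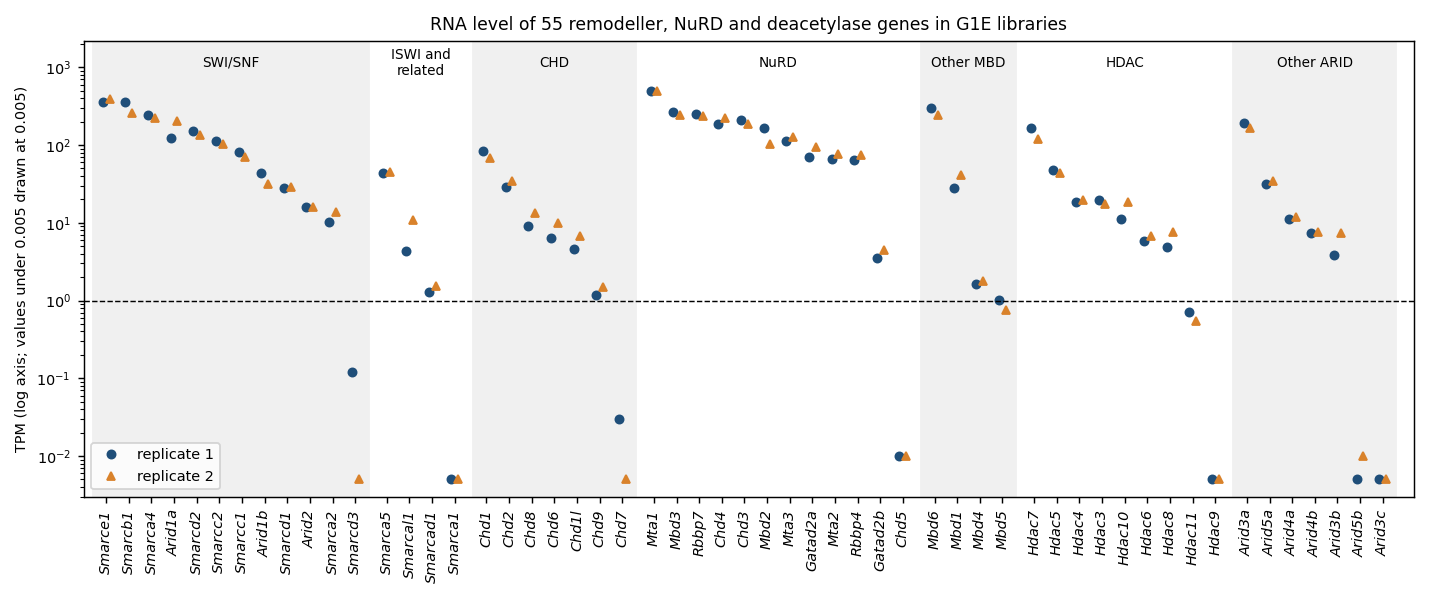
TPM of the 55 genes on a log axis, grouped by complex or family and ordered by mean within a group; circles are replicate 1, triangles replicate 2, and the dashed line is 1 TPM. The 9 genes not detected lie below the line in at least 1 library, and Mta1 stands highest at 499 and 494 TPM.

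Each subunit position of NuRD examined here had detected genes, and in each but that of the ATPase the same paralogue held over 50% of the RNA, in TPM or in counts, by every measure tried. In bulk RNA these levels do not tell how many of the cells carry a transcript. The MTA proteins are the scaffold on which the deacetylases sit. Mta1 (chr12:113098278-113137206, plus strand, mm10) averaged 497 ± 4.08 TPM and held 72.2% ± 2.12 of the TPM of the 3 MTA genes. Mta3 stood at 112 TPM in replicate 1 and 127 TPM in replicate 2, and Mta2 at 66.6 and 77.6 TPM. The 3 genes kept this order in both libraries and their values did not overlap. Counting transcripts with a complete annotated coding sequence alone, Mta1 held 82.4% ± 1.37, Mta2 11.8% ± 1.26 and Mta3 5.75% ± 0.106, so that Mta2 then stood above Mta3.

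The MBD subunits MBD2 and MBD3 occupy NuRD in a mutually exclusive way, and MBD2 binds methylated CpG. Mbd3 stood at 268 TPM in replicate 1 and 245 TPM in replicate 2, with 66.1% ± 5.73 of the pair. Mbd2 stood at 164 and 104 TPM, lower than Mbd3 in each library. The drop in Mbd2 between the libraries was also seen in its counts, which were 11801 in replicate 1 and 10330 in the deeper replicate 2. By complete coding transcripts Mbd3 held 53.7% ± 3.33. That class is not limited to full-length forms. The leading Mbd2-202, with 76.95% of the Mbd2 TPM in replicate 1 and 60.68% in replicate 2, has 3 exons against 7 in Mbd2-201.

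GATAD2A and GATAD2B join the MBD side of NuRD to its ATPase. Gatad2a stood at 70.2 TPM in replicate 1 and 95.0 TPM in replicate 2, against 3.54 and 4.45 TPM for Gatad2b. Gatad2a thus held 95.4% ± 0.229 of the pair, a share that was 98.3% by counts. RBBP4 and RBBP7 are WD-repeat histone chaperones shared with other complexes. Rbbp7 stood at 251 and 239 TPM in replicates 1 and 2, and Rbbp4 at 63.7 and 74.9 TPM. Rbbp7 held 77.9% ± 2.55 of their TPM and 56.2% ± 4.04 of their counts, since the leading Rbbp4 transcript, of 4407 bases, is longer than the leading Rbbp7 transcript of 1430 bases.

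The ATPase slot could not be assigned to 1 paralogue from gene TPM. CHD4 and CHD3 are the broadly expressed NuRD ATPases, and CHD5 is known mainly from the nervous system and testis. Chd4 (chr6:125095981-125130591, plus strand) stood at 185 TPM in replicate 1 and 221 TPM in replicate 2. Chd3 (chr11:69343273-69369406, minus strand) stood at 209 and 185 TPM. The order of the genes was thus opposite in the 2 libraries, with Chd4 at 47.0% of the family in replicate 1 and 54.5% in replicate 2. The balance moved when transcripts were sorted by their annotation. Chd4 held 76.0% ± 3.92 of the counts, 78.3% ± 0.502 of the TPM of protein-coding transcripts and 92.0% ± 1.29 of that of complete coding transcripts. The complete Chd3 transcript, Chd3-202 of 7261 bases, had 12.4 TPM in replicate 1 and 19.3 TPM in replicate 2, against 164 and 197 TPM for the complete transcripts of Chd4. Chd5 was not detected, with 5 counts in replicate 1 and 3 in replicate 2.

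Summed over paralogues, the MTA slot held 678 and 699 TPM in replicates 1 and 2, the MBD slot 431 and 350, the ATPase slot 394 and 406, the RBBP slot 315 and 314 and the GATAD2 slot 73.7 and 99.4. By complete coding transcripts the ATPase sum was 176 and 217 TPM and the MTA sum 592 and 595 TPM. GATAD2 was the lowest slot under both ways of counting. Of 9 recruiters and accessory genes listed for NuRD, 5 were detected: Zfpm1 led at 1195 ± 51.2 TPM, followed by Ikzf1, which encodes Ikaros, at 229 ± 18.5 and the small subunit gene Cdk2ap1 at 154 ± 10.5. Ikzf3, Sall4, Zfpm2 and Sall1 were not detected, the last 3 being listed at 0 in both libraries. Zfpm2 encodes FOG-2, the paralogue of FOG-1 known from heart and gonad.

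**Figure D2:**
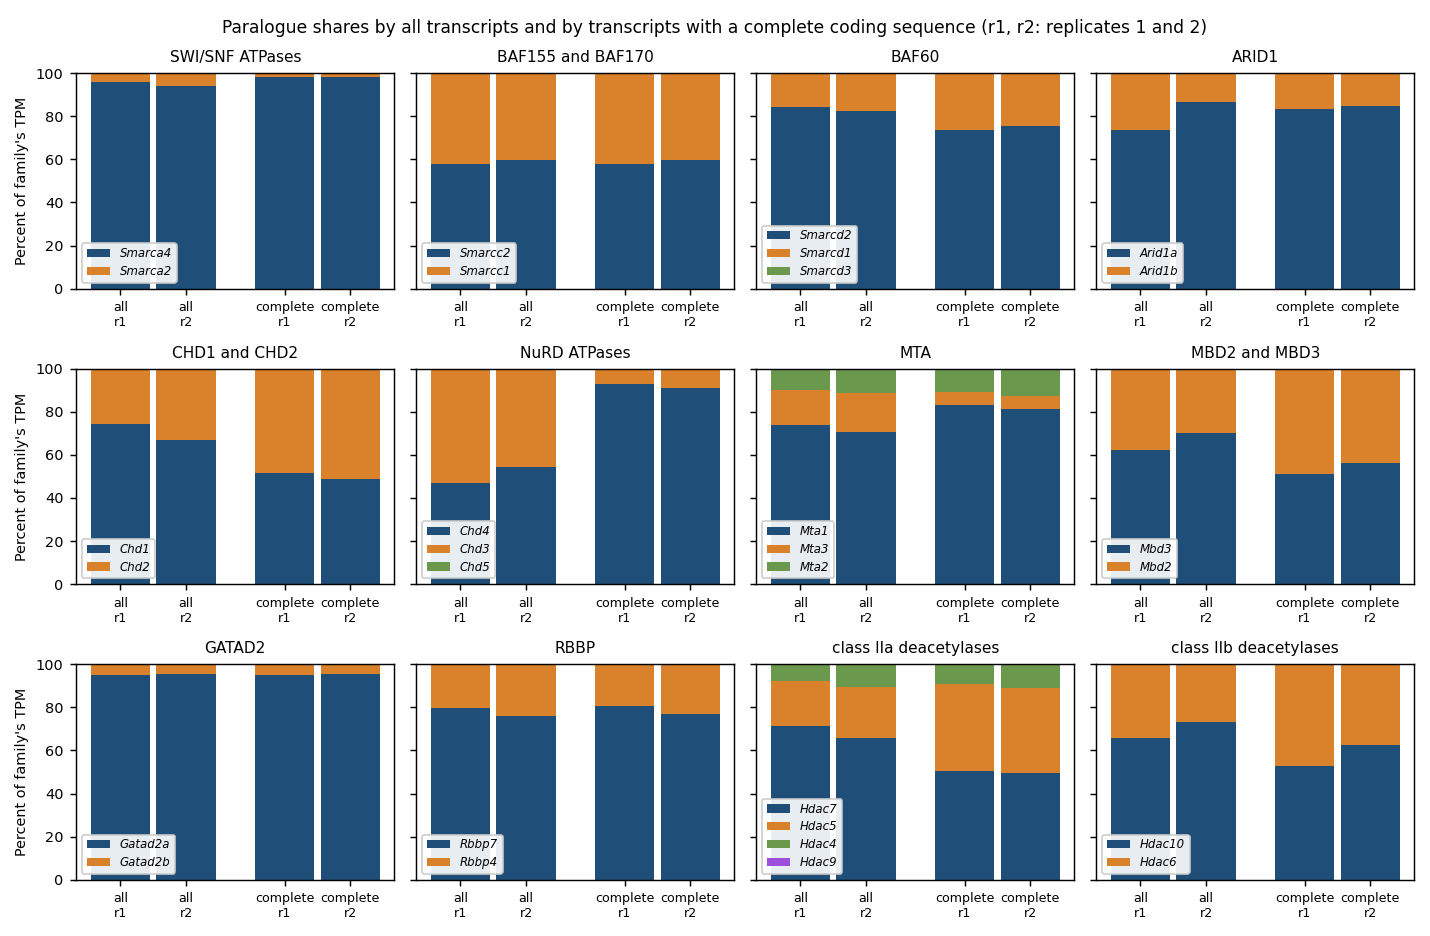
Percent of each family's TPM held by each paralogue, by all transcripts (left pair of bars) and by transcripts with a complete coding sequence (right pair), replicate 1 then replicate 2. Chd4 is near an even share with Chd3 by all transcripts and at 92.9% and 91.1% by complete coding transcripts, whereas Smarcc2 and Smarcc1 keep the same shares.

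Of the 12 SWI/SNF genes among the members, 11 were detected. The ATPase slot was mostly Smarca4, which encodes BRG1, at 243 TPM in replicate 1 and 221 TPM in replicate 2. Smarca2, which encodes the alternative ATPase BRM, stood at 10.1 and 13.7 TPM. Smarca4 held 95.1% ± 1.30 of the pair, and 98.1% ± 0.0282 by complete coding transcripts. The leading Smarca2 transcript was Smarca2-202, annotated as a target of nonsense-mediated decay, with 64.6% of the gene's TPM in replicate 1 and 47.8% in replicate 2.

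The core and accessory subunits came next. SMARCC1 and SMARCC2 (BAF155 and BAF170) form the dimer at the base of the complex. Smarcc2 at 113 and 104 TPM was higher than Smarcc1 at 81.6 and 70.5 TPM in replicates 1 and 2, and held 58.8% ± 1.06. Both genes were read almost entirely from complete coding transcripts, so that this share did not move with transcript class. Smarcc1 has a single annotated transcript, so its own level could not move. Of the BAF60 genes, which link the complex to transcription factors, Smarcd2 stood at 151 and 137 TPM and Smarcd1 at 28.2 and 29.1 TPM. Smarcd2 held 83.3% ± 1.24 of the family, and 74.5% ± 1.22 by complete coding transcripts. Smarcd3, the form known from heart and skeletal muscle, had 3 counts in replicate 1 and 1 in replicate 2, and 48.2% of its exon bases are shared with Chpf2 on the other strand, so that even these few reads may come from its neighbour.

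Smarcb1 and Smarce1, subunit genes with no paralogue among the members, stood above Smarca4 by all transcripts and below it by complete coding ones. Smarcb1, which encodes the core subunit SNF5, had 357 TPM in replicate 1 and 257 TPM in replicate 2, but 133 TPM in each by complete coding transcripts. Most of the rest lay on Smarcb1-204, a decay-annotated transcript of 960 bases, with 220.01 TPM in replicate 1 and 119 TPM in replicate 2. Smarce1, which encodes the HMG-box subunit BAF57, had 363 and 391 TPM, of which the coding transcript Smarce1-201 had 55.6 and 60.5 TPM. The ATPase sum was 253 and 235 TPM by all transcripts, and 192 and 172 TPM by complete coding transcripts.

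ARID1A and ARID1B are alternative subunits that define the BAF form of SWI/SNF, and ARID2 marks the PBAF form. Arid1a stood at 122 TPM in replicate 1 and 205 TPM in replicate 2, and Arid1b at 43.7 and 31.8 TPM. The share of Arid1a was 73.7% in replicate 1 and 86.6% in replicate 2, a wider gap than in the other 17 families examined. By complete coding transcripts it was 83.2% and 85.0%. Arid2 stood at 15.8 and 16.1 TPM. Of 17 further SWI/SNF subunits, 16 were detected, led by Actb at 2460 ± 899, the PBAF subunit gene Brd7 at 447 ± 98.6 and Bcl7c at 242 ± 22.1 TPM. Actb also encodes the cell's bulk actin. Actl6b, the neuronal actin-like subunit gene, was listed at 0.

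Of the ISWI pair a single gene was detected. Smarca5, which encodes SNF2H (chr8:80698507-80739497, minus strand), stood at 43.2 TPM in replicate 1 and 45.5 TPM in replicate 2. Smarca1, which encodes SNF2L and is best known from neurons (chrX:47809368-47892974, minus strand), had 0 counts in both. A count of 0 allows up to 3 counts per library, which at its listed effective length is 0.0223 TPM in replicate 1 and 0.0177 TPM in replicate 2 (counting error only). The authors' posterior mean for Smarca1 was higher than this limit, at 0.18 TPM in replicate 1 and 0.14 TPM in replicate 2, with upper bounds of 0.395 and 0.316 TPM, for which the level of the interval is not stated. By posterior means Smarca5 held 99.6% of the pair. All 9 listed ISWI partners were detected, led by Bptf at 89.9 ± 20.1, Baz1b at 66.6 ± 2.74 and Pole3 at 38.9 ± 1.89 TPM. The processed pseudogene Smarca5-ps had 0 and 7.39 counts, against 14393 and 19143 for Smarca5.

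Promoter sequences are shown for this pair and for the NuRD pair of Chd4 and Chd5, since each has a member that was detected and a member that was not. They come from RefSeq on GRCm38.p6, which is the same assembly as mm10, and run from 250 bases before to 50 after a start site, with each CpG in capitals. The coordinates are chr8:80739410-80739709 (Smarca5, minus strand), chrX:47892564-47892863 (Smarca1, minus strand), chr6:125095913-125096212 (Chd4, plus strand) and chr4:152338404-152338703 (Chd5, plus strand).
Smarca5: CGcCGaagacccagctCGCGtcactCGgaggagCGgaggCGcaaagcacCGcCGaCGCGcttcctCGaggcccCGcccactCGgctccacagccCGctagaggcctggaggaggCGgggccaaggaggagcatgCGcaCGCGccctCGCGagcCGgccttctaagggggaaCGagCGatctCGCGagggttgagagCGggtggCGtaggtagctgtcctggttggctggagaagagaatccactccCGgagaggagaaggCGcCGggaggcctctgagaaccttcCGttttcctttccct
Smarca1: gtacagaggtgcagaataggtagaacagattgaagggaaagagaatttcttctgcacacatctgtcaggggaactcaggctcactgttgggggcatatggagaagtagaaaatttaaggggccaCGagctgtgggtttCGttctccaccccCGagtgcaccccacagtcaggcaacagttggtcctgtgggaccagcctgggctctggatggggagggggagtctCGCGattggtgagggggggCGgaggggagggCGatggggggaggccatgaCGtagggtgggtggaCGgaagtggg
Chd4: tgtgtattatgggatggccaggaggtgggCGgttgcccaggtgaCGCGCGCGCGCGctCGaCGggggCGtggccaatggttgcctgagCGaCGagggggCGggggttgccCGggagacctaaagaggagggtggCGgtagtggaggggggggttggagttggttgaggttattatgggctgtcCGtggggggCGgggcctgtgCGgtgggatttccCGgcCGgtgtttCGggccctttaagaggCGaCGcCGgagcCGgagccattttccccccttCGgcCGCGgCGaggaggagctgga
Chd5: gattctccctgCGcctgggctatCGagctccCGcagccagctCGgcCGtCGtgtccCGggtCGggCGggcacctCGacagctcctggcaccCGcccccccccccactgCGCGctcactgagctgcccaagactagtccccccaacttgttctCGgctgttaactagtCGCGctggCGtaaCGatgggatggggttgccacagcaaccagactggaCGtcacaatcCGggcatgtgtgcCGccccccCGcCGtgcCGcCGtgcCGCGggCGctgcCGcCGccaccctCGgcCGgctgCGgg

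CpG dinucleotides, the letters CG, numbered 32 in the Smarca5 window and 9 in that of Smarca1, but 29 for Chd4 and 33 for Chd5. A CpG-rich window was therefore seen on a gene that was not detected as well as on one that was. Of the members, 42 matched the RefSeq table by symbol, and the window with most CpG was taken for each. The median was 26.5 CpG over the 34 detected members and 20.5 over the 8 undetected ones, with ranges of 4 to 50 and 3 to 40 that overlap. With the same choice of window, the median over all 27025 genes in the table was 8. These genes were not filtered by gene type or by detection, unlike the members, so the medians come from unlike sets. The most CpG-rich member window was that of Mta1, with 50, and 99.2% of the 27025 genes had as many or fewer. Some listed starts lie far inside the gene, as for Hdac9, Smarcd3 and Smarcd2, so that these counts describe the windows listed and not the promoter in use. Hdac9 and Smarcd3 set both ends of the undetected range, and Smarcd2 the low end of the detected one. The listed start of Smarca1 lies 361 bases inside the M21 gene, against 38 bases for Smarca5. The letters AGATAA or their reverse complement TTATCT, a form of the GATA motif, were in 5 of 56 member windows, or 8.93%. They were in 11.2% of all 32851 promoters in the table, which were likewise not filtered.

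Among the remaining CHD genes, none reached the level of Chd4. CHD1 and CHD2 are the remodellers tied to transcribing polymerase. Chd1 stood at 83.0 TPM in replicate 1 and 68.7 TPM in replicate 2, and Chd2 at 28.8 and 34.1 TPM. By complete coding transcripts the genes were even, with Chd1 at 4.54 and 6.24 TPM and Chd2 at 4.28 and 6.49 TPM, and their order differed between the libraries. For Chd2, 18.4% of exon bases are shared on the same strand with the non-coding gene 1810026B05Rik, at 28.1 and 24.4 TPM, and the gene count of Chd2 was not whole, so that reads may have been divided between them. Chd8, a gene known from autism, stood at 9.06 and 13.3 TPM and Chd6 at 6.33 and 9.99 TPM. Chd1l, whose product is activated by poly(ADP-ribose), stood at 4.63 and 6.69 TPM and Chd9 at 1.19 and 1.49 TPM. Chd7, the gene mutated in CHARGE syndrome, had 5 counts in replicate 1 and 2 in replicate 2.

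Smarcal1, which encodes a fork-remodelling helicase, stood at 4.37 TPM in replicate 1 and 10.8 TPM in replicate 2. Smarcad1, which acts in heterochromatin upkeep, stood at 1.30 and 1.53 TPM. Of 15 genes of the INO80, SRCAP and EP400 remodellers, 14 were detected, led by Ino80e at 643 ± 126, Ruvbl2 at 343 ± 0.247 and Vps72 at 289 ± 18.3 TPM. Actr6 was below the threshold at 0.40 and 0.56 TPM.

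Among the zinc-dependent deacetylase genes analysed, which leave out Hdac1 and Hdac2, a class IIa gene stood highest. Class IIa enzymes have little deacetylase activity of their own and bind MEF2 factors and the NCoR corepressor. Hdac7 stood at 164 TPM in replicate 1 and 120.4 TPM in replicate 2, Hdac5 at 47.3 and 43.3 TPM and Hdac4 at 18.3 and 19.5 TPM. Hdac9 had 0 counts in both libraries, which allows up to 0.0126 TPM in replicate 1 and 0.00993 TPM in replicate 2. Hdac7 held 68.6% ± 4.02 of the class by all transcripts. By complete coding transcripts it held 49.9% ± 0.847 and Hdac5 40.0% ± 0.705, since Hdac7-212, annotated as a decay target, carried 59.1% and 54.5% of the Hdac7 TPM in replicates 1 and 2. Of the MEF2 genes, Mef2d stood at 137 ± 3.90, Mef2a at 3.66 ± 0.0990 and Mef2b at 1.72 ± 0.212 TPM, and Mef2c was listed at 0.

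Hdac3, the catalytic partner of NCoR, stood at 19.5 TPM in replicate 1 and 17.7 TPM in replicate 2, and Hdac8, which deacetylates cohesin, at 4.91 and 7.57 TPM. Of the class IIb genes, Hdac10 stood at 11.3 and 18.5 TPM and the tubulin deacetylase gene Hdac6 at 5.92 and 6.72 TPM. Hdac10 held 69.5% ± 5.42 of the pair, but 42.8% ± 11.7 by protein-coding transcripts of any kind, a measure in which the order of the genes differed between libraries. It held 57.7% ± 6.62 by complete coding transcripts and 70.9% ± 0.238 by counts, and led in both libraries by each. Hdac11 was below the threshold at 0.72 and 0.55 TPM, with 88 and 97 counts. Of 15 SIN3 and NCoR partner genes, 14 were detected, led by Sap18 at 385 ± 21.8, Gps2 at 209 ± 5.93 and Ncor1 at 74.6 ± 3.10 TPM. All 7 sirtuins, the NAD-dependent deacetylases, were detected, led by Sirt7 at 210.2 ± 56.2, Sirt6 at 146 ± 12.8 and Sirt2 at 108 ± 5.43 TPM.

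Among the remaining ARID and MBD genes, the Arid3 and Arid5 families and the pair of Mbd5 and Mbd6 each had a single leader. Arid4a held 60.8% ± 0.814 of the TPM of its pair with Arid4b. Arid3a, which encodes the DNA-binding factor Bright, stood at 191 TPM in replicate 1 and 164 TPM in replicate 2 and held 96.9% ± 1.61 of its family. Arid3b stood at 3.89 and 7.31 TPM, and Arid3c had 0 counts. Arid5a, which encodes an RNA-binding factor, stood at 31.6 and 34.3 TPM, whereas Arid5b had 0 counts in replicate 1 and 2 in replicate 2. Arid4a at 11.2 and 11.9 TPM was above Arid4b at 7.36 and 7.51 TPM; both encode subunits of SIN3 complexes. Mbd6 stood at 299.8 and 244 TPM, against 1.03 and 0.75 TPM for Mbd5. MBD5 and MBD6 are partners of the Polycomb deubiquitinase. Mbd1, a reader of methylated CpG, stood at 28.2 and 40.6 TPM, and the repair glycosylase gene Mbd4 at 1.61 and 1.79 TPM.

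A smaller share of the members' TPM lay on transcripts with a complete coding sequence than was the case for detected protein-coding genes as a whole. Transcripts were classed by GENCODE M21 as complete coding, coding with a missing start or end, targets of nonsense-mediated decay, or non-coding, the last being retained introns and processed transcripts. The median share of TPM on complete coding transcripts was 78.2% in replicate 1 and 77.2% in replicate 2 for the 46 detected members, beside 97.5% and 97.0% for all detected protein-coding genes. Fewer of the members have a single annotated transcript: 40 of 46 have several, against 6431 of 8581 for all. Among genes with several transcripts the medians were 64.7% and 71.4% for members in replicates 1 and 2, beside 82.0% and 81.3% for all. Under 50% on complete coding transcripts were 15 members (32.6%) in replicate 1 and 14 (30.4%) in replicate 2, 13 of them in both, beside 26.7% and 25.8% of detected protein-coding genes. Among genes with several transcripts these shares were 37.5% and 35.0% for members, beside 35.3% and 34.1% for all, which is close to the background. At the other end, 10 members had all their TPM on such transcripts in both libraries, among them Smarcc1, Smarcc2, Smarcd1, Mbd1 and Hdac8. The like share over all detected protein-coding genes is not given here, so this count is not read as a trait of the members. The 6 detected members with a single annotated transcript, such as Smarcc1, Smarcd1 and Mbd1, are among the 10. For these 6 the share was fixed by the annotation. Leading transcripts were also longer for members, at a median of 3001 bases against 2019 bases for all, and the part of length in this gap was not tested.

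**Figure D3:**
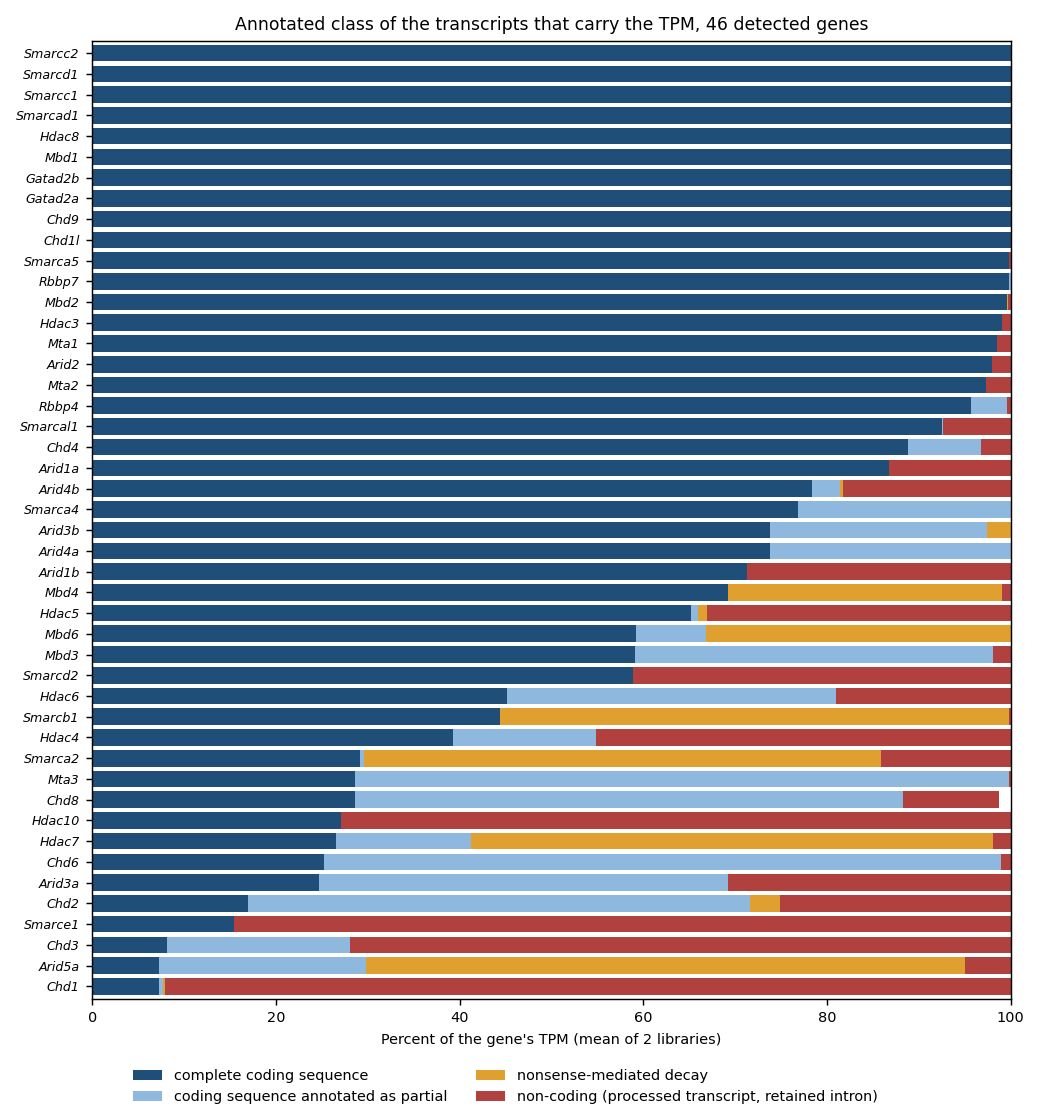
Mean percent of TPM on each transcript class for the 46 detected genes, ordered from most complete coding (top) to least (bottom); Chd8 stops short of 100 because a transcript of it has no M21 class. Chd1, Arid5a, Chd3, Smarce1 and Chd2 form the lower end, with under 20% on complete coding transcripts.

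Taking the transcript with the highest mean share of TPM as the leader, 16 of 40 detected members with several transcripts, or 40%, were led by one that was not complete coding. The share over all such detected protein-coding genes was 33.2%, so the members' share is not far from the background. Of the 16, 6 leaders were partial coding (Arid3a, Chd2, Chd6, Chd8, Mbd3, Mta3), 5 decay targets (Arid5a, Hdac7, Mbd6, Smarca2, Smarcb1) and 5 non-coding (Chd1, Chd3, Hdac10, Hdac4, Smarce1). These are 6, 5 and 5 of the 40 members. Over all such detected protein-coding genes, 7.40% were led by partial coding transcripts, 5.21% by decay targets and 19.4% by non-coding ones. The median leading share was 64.8% in replicate 1 and 61.1% in replicate 2 for members, beside 75.8% and 73.5% for all. The leader differed between libraries for 7 of the 40 members, or 17.5%, beside 13.3% of all: Arid3b, Arid4b, Chd3, Gatad2a, Hdac6, Mbd6 and Smarcb1. The tables were made with an older annotation release, in which 19 of the 355 member transcripts matched had a length over 10% off that in M21, the leaders of Chd8, Gatad2a and Smarcc2 among them, so that their class is uncertain.

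The non-coding leaders of Chd1, Chd3 and Smarce1 are described as examples, and they do not stand for every such leader. Hdac4-208 was also short, with 3287 bases against 8100 in Hdac4-202. Hdac10-204, however, has 2376 bases against 2412 in the coding transcript Hdac10-201. Among decay-annotated leaders, Smarca2-202 has 5913 bases against 5862 in Smarca2-209. Those of Arid5a, Hdac7, Mbd6 and Smarcb1 were shorter than the coding transcript they were set against. Chd1-203 is a processed transcript of 1372 bases that covers the first 17.7% of the coding transcript Chd1-201, of 7916 bases, and shares 98.4% of its own bases with it. It carried 94.0% of the Chd1 TPM in replicate 1 and 90.1% in replicate 2, and 78.6% and 67.6% of the Chd1 counts. Chd3-205 is a retained intron of 1882 bases over the last part of Chd3-202, with 26.2% and 31.5% of the Chd3 TPM. Chd3-203, a retained intron of 2153 bases at the same end, had 34.4% and 18.6%. Smarce1-206 is a processed transcript of 610 bases with 70.6% and 61.3% of the Smarce1 TPM but 39.1% and 33.1% of the counts. Windows of 40 bases are shown where each leaves the exons of the coding transcript, with bases found only in the short transcript in capitals and shared exon bases in lower case. They lie at chr17:15730998-15731037 (Chd1-203, plus strand), chr11:69345615-69345654 (Chd3-205, minus strand) and chr11:99213311-99213350 (Smarce1-206, minus strand) and are read from GENCODE M21 transcripts.
Chd1-203: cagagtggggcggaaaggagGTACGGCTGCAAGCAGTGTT
Chd3-205: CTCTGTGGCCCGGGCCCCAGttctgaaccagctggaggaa
Smarce1-206: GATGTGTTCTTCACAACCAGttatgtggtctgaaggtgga

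In each window the capitals are intron sequence of the coding transcript next to the edge of one of its exons. The Chd1-203 run opens with GT, the usual first letters of an intron, and ends with the transcript after 22 unshared bases. The other 2 runs close with AG, the usual last letters of an intron, and run 385 bases into the intron before the Chd3 exon and 113 bases before the Smarce1 exon. Over most of their length these transcripts therefore cannot be told from the coding transcript by the sequence of a read. How far the split between them depends on the way shared reads were divided was not tested. Because TPM divides by length, a given number of reads weighs more on a short transcript than on a long one. Smarcd2-208, a retained intron of 485 bases, had 47.1% and 33.8% of the Smarcd2 TPM in replicates 1 and 2 but 10.5% and 6.27% of the counts.

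Levels of the members agreed closely between the libraries. The Pearson correlation of log2(TPM + 1) across the 55 members was 0.993, beside 0.994 across all protein-coding genes. Genes are not independent replicates. Of the 47 members at 1 TPM or more in at least 1 library, 1 differed by 2-fold or more, or 2.13%, beside 5.78% of protein-coding genes. In counts scaled by the TMM method these shares were 2.13% and 3.06%, so the gap depends on the measure. The 1 member was Smarcal1, at 10.8 TPM in replicate 2 and 4.37 TPM in replicate 1, a ratio of 2.46, with 2199 and 716 counts. Its log2 ratio, replicate 2 over replicate 1, was 1.30 in TPM and 1.12 in counts scaled by the TMM method. Mbd2 was 1.57-fold higher in replicate 1, and 1.5-fold was also passed by Arid1a, Arid3b, Hdac10, Hdac8 and Chd6, which were higher in replicate 2. Of these 7 genes, Smarcal1 and Mbd2 passed 1.5-fold in scaled counts as well.

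For Arid1a the libraries differed in transcripts more than in reads. Its TPM ratio was 1.68, replicate 2 over replicate 1, while the log2 ratio of scaled counts was 0.17. The retained intron Arid1a-206, of 521 bases, was listed at 0 TPM in replicate 1 and at 46.5 TPM in replicate 2, on 1228 counts or 1.44% of the gene's counts. The complete coding Arid1a-201 had 5.32 TPM in replicate 1 and 46.8 TPM in replicate 2, with 3.51% and 24.6% of the counts, while the leading Arid1a-205 had 111 and 107 TPM. Arid3b had the same form, with its partial transcript Arid3b-210 listed at 0 in replicate 1 and at 3.45 TPM in replicate 2. With 1 sample a side none of these differences has a test.

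**Figure D4:**
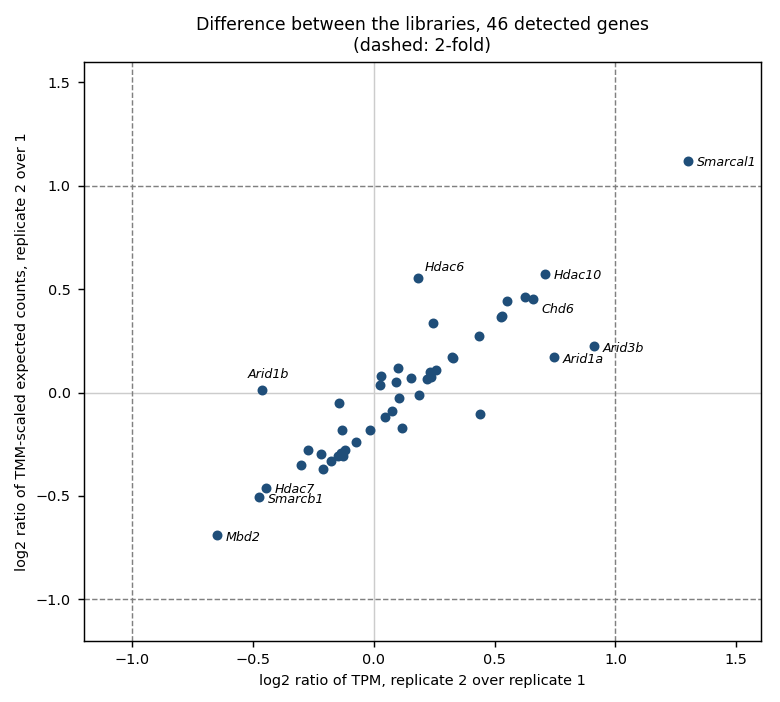
log2 ratio of replicate 2 over replicate 1 for the 46 detected genes, in TPM (horizontal) and in TMM-scaled expected counts (vertical); dashed lines mark 2-fold. Smarcal1 lies past 2-fold on both axes, while Arid1a and Arid3b lie to the right with count ratios of 0.17 and 0.22.

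Across the 46 detected members TPM was higher where the leading transcript had more GC, with a Spearman rho of 0.505, beside 0.383 across 8500 detected protein-coding genes. These points share the same libraries, and genes are not independent. Median GC was 53.5% for the members and 52.4% for all.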

How the data were processed

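RNA levels were taken from the deposited tables per gene and per transcript of 2 G1E libraries. They were made on mm10 with annotation release M4, per the deposited descriptions; which aligner and counter were used is not given in the sources used here. The deposited expected counts are estimated counts in which shared reads are divided by a model. The authors' TPM values are scaled by effective length and by the library's sum of length-scaled counts. The authors' transcript shares are each transcript's percent of the gene's TPM. Posterior mean TPM values were deposited too, with the authors' lower and upper signal bounds, of which those for Smarca1 are printed. Whether counting used strand is not stated, so reads of overlapping genes on opposite strands cannot be told apart.

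Gene identifiers were matched without version to GENCODE M21 (42462 of 43346, 98.0%). Detection was set at 1 TPM in both libraries; log2 values used a pseudocount of 1. Counts were scaled by TMM and by RLE in edgeR 4.0.16, with no test, on genes with 10 or more counts; other steps used pandas 2.3.3 and SciPy 1.17.1. With 1 group no test was run. A count of 0 is given the limit of 3 counts, which covers counting error only. Transcripts annotated as protein-coding with no missing start or end were called complete coding. This class includes short forms, such as Arid2-202, of 809 bases against 8507 in Arid2-201. All members are named; of the 7 pathway lists, undetected genes and the 3 highest are named, besides genes a result turned on. Members and lists were chosen with earlier results of these data known. Settings were varied one at a time; the complete coding measure and the alternatives for the pathway lists and for transcript length were added after seeing the data. Promoters were those in RefSeq's table for GRCm38.p6; Hdac1 and Hdac2 were not used here, and a few listed genes are not reported by name.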

Additional observations from a re-analysis of the deposited data

How the results depend on the processing

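The number of detected members was 46 of 55, and 48, 38 and 34 at thresholds of 0.5, 5 and 10 TPM. At 10 TPM, 5226 of 21474 protein-coding genes were detected. Leaving out a replicate gave 46 to 47 members. The median of log2(TPM + 1) over members, 4.89, was 4.85 with a pseudocount of 0.1 and 5.45 over detected members only, and 4.87 to 4.91 with either replicate left out. The Chd4 share of the NuRD ATPases, 50.8%, became 76.0% by expected counts, 78.3% by protein-coding transcripts and 92.0% by complete coding transcripts, and was 47.0% to 54.5% with either replicate left out, where Chd3 led without replicate 2. By protein-coding transcripts Chd2 led Chd1 and, in the mean of the libraries, Hdac6 led Hdac10. By counts and by complete coding transcripts Hdac10 led Hdac6. The median leading share over members, 61.5%, was 73.4% among protein-coding transcripts and 61.1% to 64.8% with either replicate left out. Members led by a transcript that was not complete coding numbered 16 of 40, beside 33.2% of protein-coding genes. They numbered 9 among protein-coding transcripts, and 15 to 17 with either replicate left out. Where the leader's length agreed between annotations they numbered 15 of 37, beside 33.1% of protein-coding genes. At 1.5-fold 7 members differed between libraries, beside 18.2% of protein-coding genes, against 1 at 2-fold, which stayed 1 in scaled counts. Pathway genes detected numbered 68 of 76 under each alternative run. No paired analysis was possible because there was 1 group. With 2 libraries from 1 biosample, SDs are rough, and members with few counts (Chd5, Chd7, Smarcd3, Arid5b) have no usable transcript shares.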
